A study of Mus musculus with 20 samples.

Results

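Resident macrophages of tissue borders share a set of marker genes, and the mRNAs of 10 of these were followed in macrophages sorted from the dura mater of the skull (dural CNS-associated macrophages, dCAMs). The members were chosen by symbol, as Mrc1, Stab1, Cd163, Lyve1, Folr2, Timd4, Cbr2, F13a1, Fcna and Pf4, and 10 of 10 were found among the 33243 genes of the count table. The filter on low counts kept 16632 genes, which included all 10 members. RNA was sequenced from 20 libraries in 4 groups of 5, a tdT+ and a tdT- library from each of 10 mice, and each library comes from 1 mouse.

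All 4 groups came from Ccr2creERT2/+ R26tdT/tdT mice, in which the Ccr2 gene drives a tamoxifen-dependent Cre and recombination at R26 turns on the red fluorescent protein tdTomato (tdT). Every mouse, controls included, had first been depleted of macrophages with BLZ945, an inhibitor of the receptor CSF1R, at 200 mg/kg for 7 days. Mice received tamoxifen (2 mg/day) as gavage ended and again 2 and 4 days after it, so the label marks cells whose precursors expressed Ccr2 early in repopulation. A tdT- cell is one in which no label arose, which need not mean another origin. An injection of the endotoxin lipopolysaccharide (LPS, 2.5 mg/kg) or of PBS (CTL) followed 8 weeks after the gavage, and dura was collected at 12 h. No group without depletion was analysed here. The labels gave no ages, and per the methods the mice of the study were young adults at their first gavage. The sort gate was CD45int CD11b+ CD206int-high, and CD206 is the protein of Mrc1, so the level of Mrc1 was constrained by the sort. CTL mice are listed below in the order 174, 175, 177, 178 and 179, and LPS mice in the order 54, 56, 59, 60 and 61.

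As background, resident macrophages of the meninges, heart, gut and other tissues carry receptors that take up sugars, lipoproteins, haemoglobin, hyaluronan and dying cells, together with a few enzymes and secreted proteins. Many of these genes are raised by glucocorticoids, interleukin-10 or transcription factors of the MAF family, and many fall when macrophages meet endotoxin. Cells that arrive from blood monocytes acquire them to differing degrees as they settle in a tissue.

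Levels are in CPM, that is counts per 1000000 counts of a library after TMM scaling, and differences as log2 fold changes ± SE from 1 edgeR quasi-likelihood fit over the 20 libraries. A gene passed with a Benjamini-Hochberg adjusted p under 0.05 over the 16632 genes and an absolute log2 fold change over 1. Library totals ranged from 6017650 to 18925908 counts and were mostly lower in CTL than in LPS libraries, with 6671 to 11032 genes at 10 or more counts in CTL and 10930 to 11987 in LPS libraries. The members together took 0.354% to 1.2% of the counts of a library. A count of 0 allows up to 3 counts, which corresponds to 0.170 to 0.487 CPM over the libraries. The strand setting of the counting was not given in the sources used here, so reads of Stab1, Folr2, F13a1 and Fcna cannot be told apart from those of genes that overlap them on the other strand. In bulk RNA, fewer cells of a type and less RNA per cell cannot be told apart.

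The libraries carried macrophage RNA, and the tdT- CTL libraries had the lowest summed macrophage markers. None of the 8 macrophage markers (such as Itgam, Adgre1 and Csf1r) was at the floor in every library of a group. Their summed level was 5461 to 9873 CPM in tdT- and 11428 to 12388 in tdT+ libraries of CTL mice, and 10254 to 11842 in tdT- and 11025 to 14262 in tdT+ libraries of LPS mice. Every tdT- CTL library was below every library of the other 3 groups on this sum. Markers in the sum themselves changed with LPS, where 4 of 8 passed as higher in tdT- and 3 in tdT+ dCAMs. In tdT- dCAMs the mean of Cd14 went from 1553 to 5682 CPM and that of Itgam from 148 to 942 CPM, while Csf1r went from 2709 to 1362 CPM. The sum therefore does not compare macrophage content between CTL and LPS libraries. Summed monocyte markers (6 genes, such as Ly6c2 and Ccr2) stood at 548 to 1095 CPM in tdT- and 160.2 to 467 in tdT+ libraries of CTL mice, and 300.2 to 759.5 in tdT- and 159 to 308 in tdT+ libraries of LPS mice. Dendritic cell markers (4 genes, 3 tested) summed to 12.8 to 556 CPM in tdT- CTL and 230.3 to 634 CPM in tdT- LPS libraries, against 7.54 to 40.0 and 4.62 to 18.2 CPM in the tdT+ libraries of CTL and LPS mice. In tdT- dCAMs the mean of Ccr7 was 46.3 CPM in CTL and 401 CPM in LPS mice. Flt3 went from 86.8 to 8.44 CPM and Zbtb46 from 57.8 to 7.99 CPM. The tdT- CTL library of mouse 179 stood apart with 3993 CPM of 5 fibroblast markers (Col1a1, Col1a2, Dcn, Lum, Pdgfra), followed by mouse 175 with 876 CPM, while the other 18 libraries held 10.9 to 336 CPM.

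Markers of cell types that also use some of the members were summed as well. Endothelial markers (8 genes, 7 tested), which bear on Lyve1 and Stab1, summed to at most 62.0 CPM in any library, and Flt4 was at or under 3 counts in each library of all 4 groups. This was not low beside Lyve1 in tdT- LPS libraries, where the sum was 10.3 to 62.0 CPM and Lyve1 0.407 to 25.5 CPM. Most of that sum was Pecam1 (mean 25.8 CPM), and Prox1, Flt4, Reln, Mmrn1 and Cldn5 were at or under 3 counts in each of these libraries. Platelet and megakaryocyte markers (6 genes, 3 tested), which bear on Pf4 and F13a1, summed to at most 53.9 CPM, and Gp1bb and Tubb1 were at or under 3 counts in every library. MHC class II genes, which mark antigen-presenting cells, fell under LPS in both populations, with 5 of 5 genes passing in each. Their summed CPM was 72666 to 125966 in tdT- CTL and 19291 to 28481 in tdT- LPS libraries, and 59095 to 102209 in tdT+ CTL and 15769.7 to 24901 in tdT+ LPS libraries. Of 5 neutrophil markers 1, S100a8, rose under LPS in each population, and their sum was 179 to 754 CPM in tdT- and 100.3 to 466 in tdT+ dCAMs against 1.54 to 179 and 0.419 to 31.0 in CTL mice. Markers of mast, B, and T and NK cells stayed at or under 131, 114 and 15.2 summed CPM, and 4 microglial markers ranged from 74.7 to 854 CPM. The part of these cells in the results below was not tested.

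**Figure D1:**
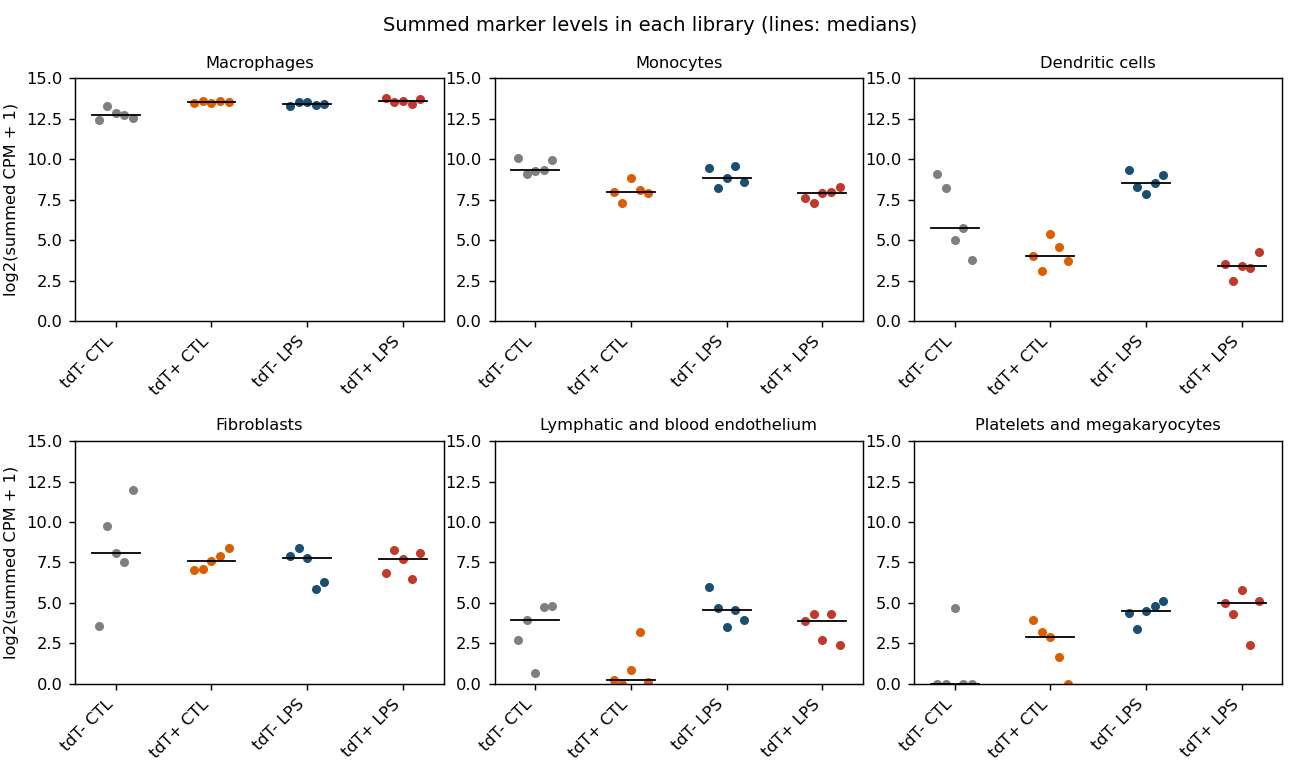
Summed CPM of marker genes on the axis log2(summed CPM + 1) for 6 cell types, with 1 point per library, 4 groups of 5 and a line at the median. The tdT- CTL libraries lie lowest for macrophage markers, and 1 of them, mouse 179, lies highest for fibroblast markers.

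The 250 bases before the start site of a gene are shown for 4 members, to set the sequences of receptors that fell under LPS beside those of members that did not pass. RefSeq promoter entries (GRCm38.p6) matched 9 of the 10 members, and Lyve1 was not among them. Capitals mark the MAF site TGCTGA, the PU.1 core GAGGAA and the NF-kB site GGGAA, on either strand, so that TTCCTC is the PU.1 core and TTCCC the NF-kB site read from the other strand. Stab1 (chr14:31168642-31168891, minus strand) and Mrc1 (chr2:14229164-14229413, plus strand) fell in both populations, while F13a1 (chr13:37050245-37050494, minus strand) and Cd163 (chr6:124304401-124304650, plus strand) did not pass in either.
Stab1: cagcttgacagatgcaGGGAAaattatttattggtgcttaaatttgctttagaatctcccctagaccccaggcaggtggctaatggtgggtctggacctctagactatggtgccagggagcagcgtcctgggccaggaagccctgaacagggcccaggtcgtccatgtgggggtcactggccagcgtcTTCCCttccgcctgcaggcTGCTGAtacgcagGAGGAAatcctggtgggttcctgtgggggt
Mrc1: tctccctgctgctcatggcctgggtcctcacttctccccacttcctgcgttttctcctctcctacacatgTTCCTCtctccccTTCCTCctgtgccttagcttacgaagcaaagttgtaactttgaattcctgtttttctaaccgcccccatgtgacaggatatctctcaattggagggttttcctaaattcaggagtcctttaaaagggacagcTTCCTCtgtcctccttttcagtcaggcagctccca
F13a1: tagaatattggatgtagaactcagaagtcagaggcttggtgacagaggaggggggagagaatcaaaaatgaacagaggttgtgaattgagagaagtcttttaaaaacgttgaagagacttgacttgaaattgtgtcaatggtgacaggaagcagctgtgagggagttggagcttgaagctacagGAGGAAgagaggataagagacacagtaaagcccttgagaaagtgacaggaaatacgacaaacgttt
Cd163: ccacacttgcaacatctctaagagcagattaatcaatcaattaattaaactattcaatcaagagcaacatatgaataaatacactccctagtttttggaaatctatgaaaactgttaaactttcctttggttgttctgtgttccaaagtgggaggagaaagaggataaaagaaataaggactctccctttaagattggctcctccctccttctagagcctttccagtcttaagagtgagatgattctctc
Stab1 held 1 MAF site, 1 PU.1 core and 2 NF-kB sites. Mrc1 held 3 PU.1 cores, and Cd163 held none of the motifs. F13a1 held 1 PU.1 core in the sequence shown, and its other RefSeq entry (chr13:37049214-37049463) held no PU.1 core and 1 NF-kB site. Among the other members, Fcna held 2 MAF sites, 3 PU.1 cores and 3 NF-kB sites, Timd4 held 2 MAF and 2 NF-kB sites, and Cbr2 held 1 PU.1 core and 1 NF-kB site. Both Folr2 entries held 1 MAF site and Pf4 held 1 PU.1 core. Of all 32851 promoters of the same length, 16.1% held the MAF site, 23.3% the PU.1 core and 56.2% the NF-kB site. Motifs so short are common, and a match is a description of letters and not a binding site.

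LPS lowered 4 members in both populations, and these were the endocytic receptors Mrc1 and Stab1, the folate receptor Folr2 and the reductase Cbr2. Lyve1 and Fcna also passed in tdT- dCAMs in the fit over the 20 libraries. No member passed in the upward direction in either population, where 7.2% (tdT-) and 3.37% (tdT+) of all genes did by edgeR. In tdT- dCAMs 6 of 10 members were lower after LPS, against 4.27% of all genes tested and 8.54% of the 5823 genes whose log2 CPM averaged 4 or more. In tdT+ dCAMs 4 of 10 were lower, against 2.52% of all genes and 5.6% of those at the higher level. Every LPS library lay below every CTL library for 4 members in tdT- dCAMs (Lyve1, Folr2, Mrc1 and Stab1; 3.31% of all genes) and for 4 in tdT+ dCAMs (Folr2, Mrc1, Cbr2 and Stab1; 7.19% of all genes). The median log2 fold change of the 10 members was -1.20 in tdT- and -1.37 in tdT+ dCAMs, beside 0.02 and 0.01 over all genes tested. Fitted on the 10 libraries of the comparison alone, only Mrc1 and Stab1 passed in tdT- dCAMs, while 6 members passed in tdT+ dCAMs, Lyve1 and Fcna among them. Over all genes 881 passed in that tdT- fit and 2246 in that tdT+ fit, in either direction. The fit over the 20 libraries gave 710 lower and 1197 higher genes in tdT- dCAMs, and 419 lower and 560 higher in tdT+ dCAMs.

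**Figure D2:**
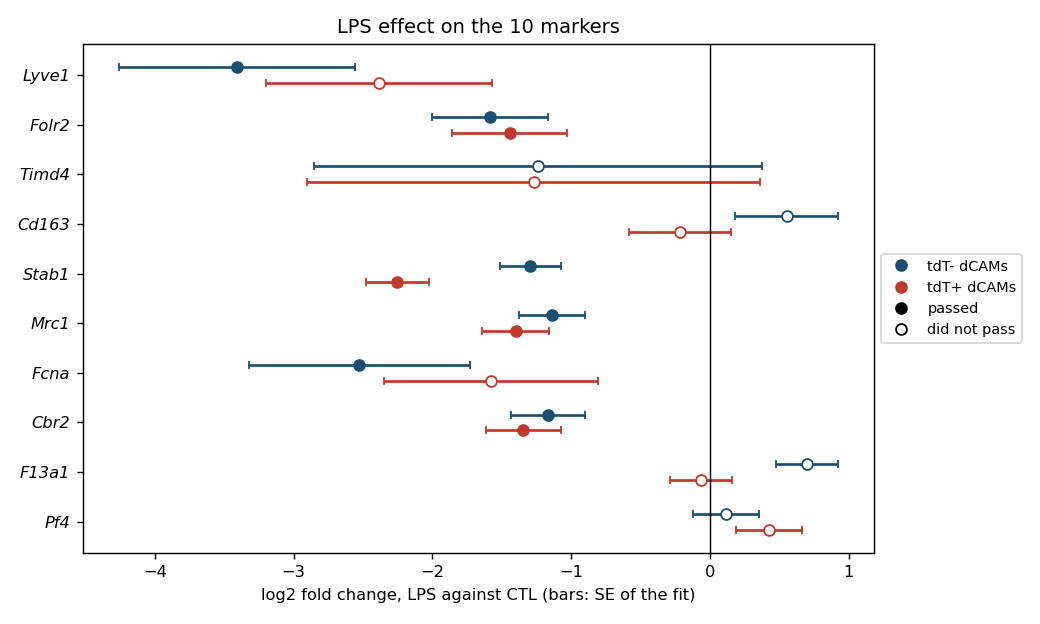
Log2 fold change of LPS against CTL for the 10 members (points, edgeR fit) with its SE (bars), in tdT- (blue) and tdT+ (red) dCAMs, where filled points passed. Stab1 shows the widest gap between the populations relative to its SE, at -1.29 in tdT- and -2.25 in tdT+ dCAMs.

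Stab1 encodes stabilin-1, a scavenger receptor that clears modified lipoproteins and extracellular matrix proteins (chr14:31139013-31168641, GRCm38, minus strand, where it meets Nt5dc2 on the other strand). Its libraries stood at 364, 701, 582, 286 and 414 CPM in tdT- CTL dCAMs and 1051, 1194, 921, 967 and 1122 CPM in tdT+ CTL dCAMs. After LPS they stood at 211, 154, 195, 224 and 172 CPM in tdT- dCAMs and 242, 207, 174, 297 and 182 CPM in tdT+ dCAMs. In CTL mice every tdT+ library lay above every tdT- library, and after LPS the groups overlapped. Means were 469 ± 169 CPM (tdT-) and 1051 ± 111 CPM (tdT+) in CTL mice, and 191 ± 28.2 CPM (tdT-) and 220.5 ± 50.3 CPM (tdT+) in LPS mice (SD, n = 5 each). Stab1 changed by -1.29 ± 0.22 log2 units in tdT- (edgeR adjusted p = 0.00037) and by -2.25 ± 0.23 in tdT+ dCAMs (adjusted p = 6.39e-07), a fold of 2.45 and 4.77 downward.

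Mrc1, the mannose receptor used for the sort (chr2:14229392-14332057, plus strand, with Mir511 within it), fell in both populations. CTL libraries held 818, 2259, 1624, 1607 and 834 CPM in tdT- CTL dCAMs and 1661, 2628, 3141, 3246 and 3384 CPM in tdT+ CTL dCAMs. LPS libraries held 649.9, 673, 674, 699.9 and 551 CPM in tdT- dCAMs and 1337, 1100.0, 1022, 947 and 916 CPM in tdT+ dCAMs. In each population the highest LPS library lay below the lowest CTL library, although all cells had been selected for CD206 protein. Means were 1428 ± 609.7 CPM (tdT-) and 2812 ± 704 CPM (tdT+) in CTL mice, and 649.6 ± 57.9 CPM (tdT-) and 1064 ± 168 CPM (tdT+) in LPS mice (SD, n = 5 each). The change was -1.14 ± 0.24 in tdT- (edgeR adjusted p = 0.00259) and -1.40 ± 0.24 in tdT+ dCAMs (adjusted p = 0.000459). Without mouse 175, whose tdT- CTL library was the highest of its group, Mrc1 in tdT- dCAMs changed by -0.91 and no longer met the fold minimum.

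Cd163, the receptor for complexes of haemoglobin and haptoglobin (chr6:124304656-124330527, plus strand), did not pass in either population. Its level in CTL mice was 78.8, 264, 181, 84.8 and 157 CPM in tdT- CTL dCAMs and 243, 488, 422, 339 and 677 CPM in tdT+ CTL dCAMs. In LPS mice it was 259, 295, 305, 138 and 128 CPM in tdT- dCAMs and 645, 382, 319, 233 and 286 CPM in tdT+ dCAMs. CTL and LPS libraries overlapped in both populations, while the tdT+ library was the higher one in each of the 10 mice. Means were 153 ± 76.5 CPM (tdT-) and 434 ± 164 CPM (tdT+) in CTL mice, and 225 ± 85.8 CPM (tdT-) and 373 ± 161 CPM (tdT+) in LPS mice (SD, n = 5 each). LPS log2 fold changes were 0.55 ± 0.37 in tdT- (edgeR adjusted p = 0.328) and -0.22 ± 0.37 in tdT+ dCAMs (adjusted p = 0.871).

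Lyve1 encodes a hyaluronan receptor of lymphatic endothelium and of perivascular macrophages (chr7:110850607-110863239, minus strand). CTL libraries ranged widely, at 85.7, 30.9, 194, 45.6 and 449.7 CPM in tdT- CTL dCAMs and 104, 139.6, 416, 295 and 90.4 CPM in tdT+ CTL dCAMs. LPS libraries were at 21.9, 11.5, 25.5, 16.6 and 0.407 CPM in tdT- dCAMs and 101, 21.6, 27.8, 22.2 and 27.8 CPM in tdT+ dCAMs. In tdT- dCAMs every LPS library lay below every CTL library, and in tdT+ dCAMs only the LPS library of mouse 54 lay within the CTL range. Means were 161 ± 174 CPM (tdT-) and 209 ± 142 CPM (tdT+) in CTL mice, and 15.2 ± 9.81 CPM (tdT-) and 40.0 ± 34.1 CPM (tdT+) in LPS mice (SD, n = 5 each). In tdT- dCAMs Lyve1 fell, with a log2 fold change of -3.41 ± 0.85 (edgeR adjusted p = 0.0102), and in tdT+ dCAMs it did not pass at -2.38 ± 0.82 (adjusted p = 0.0963). The tdT- CTL library with most fibroblast RNA, mouse 179, was also the highest for Lyve1. That with the next most, mouse 175, was the lowest of the group at 30.9 CPM. Without the library of mouse 179, an omission chosen after seeing the data, the log2 fold change in tdT- dCAMs was -2.57 (edgeR adjusted p = 0.032). The edgeR adjusted p ranged from 0.00645 to 0.0375 when 1 mouse at a time was left out.

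Folr2, folate receptor beta (chr7:101839988-101857194, minus strand, overlapped by Gm10602 and the pseudogene Gm45319), was counted at 129 to 893 reads per library. CTL libraries stood at 25.5, 24.9, 79.0, 29.8 and 58.8 CPM in tdT- CTL dCAMs and 81.1, 48.0, 89.1, 62.2 and 68.5 CPM in tdT+ CTL dCAMs. LPS libraries stood at 9.05, 15.6, 18.7, 16.1 and 13.3 CPM in tdT- dCAMs and 33.1, 19.6, 26.0, 25.2 and 24.5 CPM in tdT+ dCAMs. The LPS libraries lay below the CTL libraries without overlap in both populations. Means were 43.6 ± 24.3 CPM (tdT-) and 69.8 ± 16.1 CPM (tdT+) in CTL mice, and 14.5 ± 3.62 CPM (tdT-) and 25.7 ± 4.87 CPM (tdT+) in LPS mice (SD, n = 5 each). Folr2 changed by -1.58 ± 0.42 in tdT- (edgeR adjusted p = 0.0146) and -1.44 ± 0.41 in tdT+ dCAMs (adjusted p = 0.0388). The call in tdT- dCAMs was lost without mouse 54 (adjusted p = 0.0611, lowest 0.00637 over all 10 omissions), and the call in tdT+ dCAMs was lost without any one of mice 54, 56, 59, 60, 61 or 177 (log2 fold change -1.57 to -1.36, adjusted p 0.0281 to 0.136 over all 10 omissions).

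Timd4 encodes TIM-4, a phosphatidylserine receptor that binds dying cells and marks long-lived resident macrophages in several tissues (chr11:46810800-46844332, plus strand). CTL libraries held 82.4, 31.9, 0, 0 and 146 CPM in tdT- CTL dCAMs and 0, 8.60, 12.8, 2.31 and 0 CPM in tdT+ CTL dCAMs. LPS libraries held 19.9, 32.3, 34.5, 0 and 23.6 CPM in tdT- dCAMs and 4.60, 0.412, 1.95, 0.782 and 2.04 CPM in tdT+ dCAMs. The values fell into libraries without a single count, from both populations, and libraries with up to 1118 counts. Means were 52.1 ± 62.5 CPM (tdT-) and 4.74 ± 5.72 CPM (tdT+) in CTL mice, and 22.1 ± 13.7 CPM (tdT-) and 1.96 ± 1.64 CPM (tdT+) in LPS mice (SD, n = 5 each). Neither LPS contrast passed, at -1.24 ± 1.62 in tdT- (edgeR adjusted p = 0.652) and -1.27 ± 1.63 in tdT+ dCAMs (adjusted p = 0.794). Each SE was larger than its log2 fold change, so the fits do not decide on a direction.

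Cbr2 encodes carbonyl reductase 2, an enzyme that reduces carbonyl compounds (chr11:120729489-120732114, minus strand). CTL libraries stood at 271, 735, 1129, 686 and 552 CPM in tdT- CTL dCAMs and 1224, 1099, 1326, 1111 and 1010.0 CPM in tdT+ CTL dCAMs. After LPS the values were 194, 379, 396, 239 and 294 CPM in tdT- dCAMs and 374, 436, 494, 438 and 529 CPM in tdT+ dCAMs. In tdT+ dCAMs each LPS library lay below each CTL library, while in tdT- dCAMs the CTL library of mouse 174 lay within the LPS range. Means were 674 ± 311 CPM (tdT-) and 1154 ± 123 CPM (tdT+) in CTL mice, and 300.2 ± 87.0 CPM (tdT-) and 454 ± 59.7 CPM (tdT+) in LPS mice (SD, n = 5 each). Cbr2 changed by -1.17 ± 0.27 in tdT- (edgeR adjusted p = 0.00526) and -1.34 ± 0.27 in tdT+ dCAMs (adjusted p = 0.00222). Without mouse 177, the change in tdT- dCAMs was -0.92 and fell short of the fold minimum.

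F13a1 encodes the catalytic A subunit of coagulation factor XIII, a transglutaminase that crosslinks fibrin (chr13:36867178-37050244, minus strand, overlapped by the antisense genes Gm49144 and Gm30489). CTL libraries stood at 977, 1671, 1883, 1059.5 and 1151 CPM in tdT- CTL dCAMs and 1724, 3555, 3874, 3001 and 3261 CPM in tdT+ CTL dCAMs. LPS libraries stood at 2165, 1955, 2254, 2984 and 1582 CPM in tdT- dCAMs and 3683, 2752, 2762, 3420.5 and 2119.8 CPM in tdT+ dCAMs. CTL and LPS values overlapped in both populations. Means were 1348 ± 403 CPM (tdT-) and 3083 ± 827 CPM (tdT+) in CTL mice, and 2188 ± 515 CPM (tdT-) and 2948 ± 617 CPM (tdT+) in LPS mice (SD, n = 5 each). F13a1 did not pass in tdT- dCAMs, where its log2 fold change of 0.70 ± 0.22 met the p threshold (edgeR adjusted p = 0.0432) but not the fold minimum, nor in tdT+ dCAMs at -0.06 ± 0.22 (adjusted p = 0.969). It was thus the member with most positive log2 fold change in tdT- dCAMs.

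Fcna encodes ficolin A, a secreted lectin that starts the lectin pathway of complement (chr2:25624666-25628030, minus strand, overlapped by Fcnaos). CTL libraries ranged over 42.3, 7.25, 28.9, 38.0 and 144 CPM in tdT- CTL dCAMs and 13.1, 24.7, 55.7, 24.3 and 11.8 CPM in tdT+ CTL dCAMs. LPS libraries held 5.12, 5.15, 27.6, 1.48 and 5.78 CPM in tdT- dCAMs and 8.00, 7.75, 6.26, 14.3 and 7.04 CPM in tdT+ dCAMs. The groups overlapped in both populations. The tdT- CTL library of mouse 179 was again the highest, and that of mouse 175 was again the lowest of its group. Means were 52.2 ± 53.3 CPM (tdT-) and 25.9 ± 17.7 CPM (tdT+) in CTL mice, and 9.04 ± 10.5 CPM (tdT-) and 8.67 ± 3.22 CPM (tdT+) in LPS mice (SD, n = 5 each). Fcna passed in tdT- dCAMs at -2.53 ± 0.80 (edgeR adjusted p = 0.0411) and did not pass in tdT+ dCAMs at -1.58 ± 0.77 (adjusted p = 0.266). Without the tdT- CTL library of mouse 179 the value in tdT- dCAMs was -1.70 and no longer passed (edgeR adjusted p = 0.125, range 0.0105 to 0.125 when 1 mouse at a time was left out), and the call was also lost without mouse 54, 56, 60 or 61 (log2 fold change -3.61 to -1.70 over all 10 omissions).

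Pf4 encodes platelet factor 4 (CXCL4), a chemokine of platelets that resident macrophages also make (chr5:90772435-90773383, plus strand). CTL libraries stood at 832, 1723, 2112, 1622 and 801 CPM in tdT- CTL dCAMs and 1799.9, 1734, 1482, 1602 and 1564 CPM in tdT+ CTL dCAMs. LPS libraries stood at 1586, 1449, 1693, 1125 and 1825 CPM in tdT- dCAMs and 2689.9, 1824, 2689, 1363 and 2420.4 CPM in tdT+ dCAMs. The groups overlapped in both populations. Means were 1418 ± 579 CPM (tdT-) and 1636 ± 129 CPM (tdT+) in CTL mice, and 1536 ± 268 CPM (tdT-) and 2197 ± 585 CPM (tdT+) in LPS mice (SD, n = 5 each). Pf4 did not pass in tdT- dCAMs at 0.11 ± 0.24 (edgeR adjusted p = 0.794) or in tdT+ dCAMs at 0.43 ± 0.24 (adjusted p = 0.346).

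**Figure D3:**
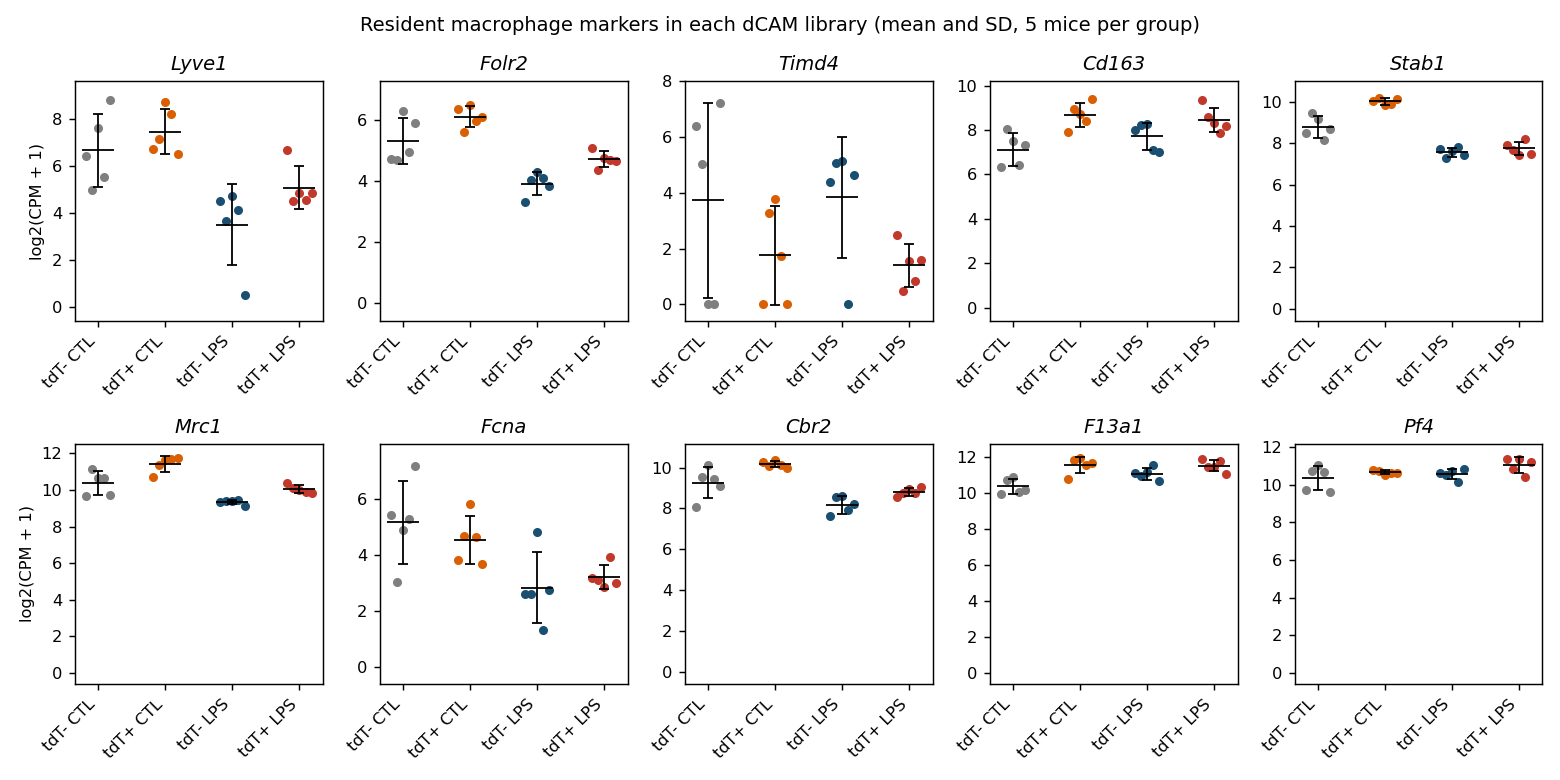
Level of each member on the axis log2(CPM + 1) in the 20 libraries (1 point per mouse, mean and SD as black bars, n = 5 per group). Stab1 and Mrc1 fall in LPS libraries of both populations, Timd4 is at 0 in 5 libraries, and F13a1 and Pf4 keep overlapping levels.

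The tdT+ against tdT- comparison asked whether label by Ccr2-driven Cre went with a different level of these genes, with both libraries from the same mouse. In CTL mice Cd163, F13a1 and Stab1 passed as higher in tdT+ dCAMs, 3 of 10 members against 3.01% of all genes. Log2 fold changes were 1.50 ± 0.38 for Cd163 (edgeR adjusted p = 0.0237), 1.19 ± 0.22 for F13a1 (adjusted p = 0.0029) and 1.16 ± 0.22 for Stab1 (adjusted p = 0.0029). Mrc1 was just under the fold minimum at 0.98 ± 0.24 (adjusted p = 0.0193). The other 6 members did not pass, with Cbr2 at 0.77 ± 0.26, Folr2 at 0.68 ± 0.41, Lyve1 at 0.37 ± 0.78, Pf4 at 0.21 ± 0.24, Fcna at -1.01 ± 0.76 and Timd4 at -3.46 ± 1.76. The members' median was 0.73, beside -0.01 over all genes tested.

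Within single CTL mice, 6 of 10 members were higher in the tdT+ library in 5 of 5 mice (Cd163, Folr2, Mrc1, F13a1, Cbr2 and Stab1), against 5.85% of all genes and 7.45% of the genes at the higher level. For Cd163 the differences in log2 CPM, tdT+ minus tdT-, were 1.62, 0.89, 1.22, 2.00 and 2.11 in the 5 CTL mice. For F13a1 they were 0.82, 1.09, 1.04, 1.50 and 1.50, and for Stab1 1.53, 0.77, 0.66, 1.76 and 1.44. These 3 members kept 1 direction, while Timd4 did not, with differences of -8.86, -1.87, 6.19, 3.81 and -9.69. Lyve1 was higher in tdT+ dCAMs in 4 of 5 mice and lower in mouse 179 (-2.31), the mouse whose tdT- library held most fibroblast RNA. In mouse 175, whose tdT- library held the next most, Lyve1 was higher in the tdT+ library (2.17). A part of fibroblast RNA in these values was not tested.

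These differences stood beside a difference in summed macrophage markers, much of it from Csf1r. Summed macrophage markers were lower in every tdT- CTL library than in any tdT+ CTL library. Of the 8 markers 1 passed, and this was Csf1r, higher in tdT+ dCAMs (1.15 ± 0.17, edgeR adjusted p = 0.000464). Its means were 2709 CPM in tdT- and 5992 CPM in tdT+ libraries of CTL mice. Adgre1 stood at 1249 and 2042 CPM, Cd14 at 1553 and 1760 CPM and Ptprc at 394 and 414.5 CPM. Whether the tdT- CTL libraries held less macrophage RNA was not tested. Expressed as a percent of the summed macrophage markers, a scale chosen after seeing the data and given without a test, Cd163 was 3.63% ± 1.36 against 2.08% ± 0.679 and Stab1 was 8.81% ± 0.780 against 6.52% ± 1.36 (tdT+ against tdT-, SD, n = 5), and both were higher in tdT+ dCAMs in 5 of 5 mice. F13a1 was higher in 4 of 5 mice on this scale, Mrc1, Folr2 and Lyve1 in 3, Cbr2 in 2 and Pf4 in 1. With Csf1r left out of the sum, Cd163, Mrc1, F13a1 and Stab1 were higher in 5 of 5 mice, Cbr2 in 4 and Folr2 in 3. Without the tdT- CTL library of mouse 179, Cd163, F13a1 and Stab1 still passed.

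The CTL difference varied with the fit. Cd163 no longer passed without mouse 178 or mouse 179 (log2 fold change 1.30 to 1.76 and edgeR adjusted p 0.0105 to 0.0801 over all 10 omissions), and Mrc1 came to pass without mouse 175 (1.24, adjusted p = 0.00302, the lowest over the 10 omissions). With the mouse as a replicate block, 3 members passed in limma-voom, where Cd163, Mrc1 and Stab1 were called and F13a1 was lost (log2 fold change 1.28, adjusted p = 0.414), and 4 passed in edgeR, where Mrc1 joined the other 3 at 1.04. Fitted on the 10 CTL libraries alone 0 members passed, with Cd163 at 1.54 (adjusted p = 0.225), F13a1 at 1.24 (adjusted p = 0.143) and Stab1 at 1.20 (adjusted p = 0.159). Over all genes 7 passed in that fit, against 500 higher and 212 lower in tdT+ dCAMs in the fit over the 20 libraries. The loss was thus not particular to the members.

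In LPS mice 0 of 10 members passed between tdT+ and tdT- dCAMs by edgeR or by DESeq2, and 3 had an unadjusted p under 0.05 (Mrc1, Cbr2 and Pf4), where 0.0301% of all genes passed in either direction. The log2 fold changes were 1.40 ± 0.79 for Lyve1, 0.82 ± 0.41 for Folr2, 0.73 ± 0.37 for Cd163, 0.71 ± 0.24 for Mrc1, 0.60 ± 0.26 for Cbr2, 0.52 ± 0.24 for Pf4, 0.43 ± 0.22 for F13a1 and 0.21 ± 0.22 for Stab1. Their adjusted p were all between 0.913 and 1.0. Fcna stood at -0.06 ± 0.75 and Timd4 at -3.49 ± 1.76. In single mice, 7 members were higher in the tdT+ library in 5 of 5 mice (Lyve1, Cd163, Folr2, Mrc1, F13a1, Cbr2 and Pf4), against 5.19% of all genes and 9.12% of the genes at the higher level. For Mrc1 the differences were 1.04, 0.71, 0.60, 0.44 and 0.73, and for Stab1 they were 0.20, 0.42, -0.16, 0.41 and 0.08. Members share libraries, and their directions are not independent of each other. The members' median log2 fold change was 0.56, beside 0.00 over all genes tested, and Timd4 was lower in tdT+ dCAMs in 4 of 5 LPS mice, with differences of -2.07, -5.78, -4.03, 2.44 and -3.42.

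**Figure D4:**
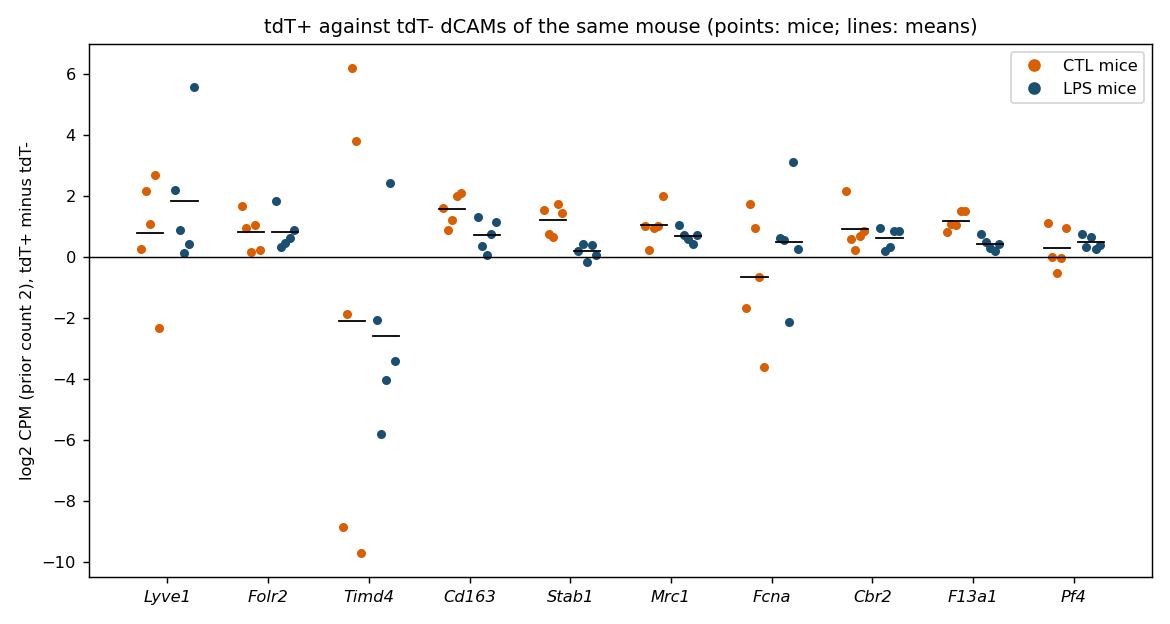
Difference in log2 CPM (prior count 2) between the tdT+ and tdT- library of the same mouse for the 10 members, with 1 point per mouse, CTL mice in orange and LPS mice in blue, and a line at the mean. Cd163, Folr2, Mrc1, F13a1 and Cbr2 lie above 0 in all 10 mice, and Timd4 spreads from -9.69 to 6.19.

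Whether the populations responded to LPS to different extents was tested as the difference of the LPS effects, tdT+ minus tdT-. Here 0 of 10 members passed by edgeR or by DESeq2, against 1.26% of all genes, and 2 had an unadjusted p under 0.05 in edgeR. For Stab1 the difference was -0.96 ± 0.31 (edgeR adjusted p = 0.159) and for F13a1 it was -0.76 ± 0.31 (adjusted p = 0.276). Stab1 passed once mouse 175 was left out (-1.11, adjusted p = 0.0429, range 0.0429 to 0.332 over all 10 omissions). For Lyve1 the difference was 1.02 ± 1.10, so that its call in tdT- and not in tdT+ dCAMs does not show a larger response in the former. LPS and population comparisons use the same CTL libraries, so their members' values are not separate evidence.

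Compared per kb of exon length, which allows genes to be ranked within a group, Pf4 led in every group, with 1967 (tdT-) and 2269.6 (tdT+) CPM per kb in CTL mice and 2129.9 (tdT-) and 3047 (tdT+) in LPS mice. It lay above the next member in all 5 libraries of each group. In CTL mice Cbr2 followed at 508 in tdT- and 869.7 CPM per kb in tdT+ dCAMs, ahead of Mrc1 (224 and 441) and F13a1 (200.1 and 458), where Mrc1 and F13a1 did not separate. After LPS F13a1 came second at 325 in tdT- and 437 in tdT+ dCAMs, with Cbr2 at 226 and 342 and Mrc1 at 102 and 167 CPM per kb. Timd4 was the lowest member in tdT+ dCAMs of CTL (2.18) and LPS mice (0.901 CPM per kb), below the next member in all 5 libraries of each. In tdT- dCAMs the low end did not separate. Timd4 had the lowest mean in CTL mice (24.0) but lay below the next member, Cd163 (28.1), in 3 of 5 libraries, and Lyve1 had the lowest mean in LPS mice (5.20) while Fcna (6.58) lay above it in 2 of 5. Stab1 in tdT+ dCAMs moved from rank 5 in CTL mice, at 102 CPM per kb, to rank 6 after LPS, at 21.4.

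Related genes gave a wider view. Of 40 other genes known from resident macrophages, all of them tested, 17 were lower and 6 higher after LPS in tdT- dCAMs, and 17 were lower and 4 higher in tdT+ dCAMs. Of all genes tested, 4.27% were lower and 7.2% higher in tdT- dCAMs, and 2.52% lower and 3.37% higher in tdT+ dCAMs. Over the list the log2 fold change had a median of -1.41 and -1.74, beside -1.20 and -1.37 for the members. Gas6, a ligand of the receptors AXL and MERTK, changed by -6.32 ± 0.46 in tdT- (edgeR adjusted p = 9.26e-09) and by -6.24 ± 0.46 in tdT+ dCAMs (adjusted p = 8.49e-09). Selenop, a selenium carrier, changed by -2.77 ± 0.24 and -2.89 ± 0.24. The scavenger receptor Msr1 rose by 2.84 ± 0.38 and 2.24 ± 0.38, and Ms4a4a rose by 2.61 ± 0.28 and 2.06 ± 0.27, in tdT- and tdT+ dCAMs, respectively, so that not all genes of this list fell.

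Between populations in CTL mice, 2 of the 40 were higher in tdT+ dCAMs and 1 was lower, counts close to the shares of all genes that were higher (3.01%) and lower (1.27%). Csf1r, the receptor that BLZ945 inhibits, was the first, and C4b, a complement component, was the second at 1.69 ± 0.41 (edgeR adjusted p = 0.0178). Cd209a, a lectin of monocyte-derived and dendritic cells, was lower in tdT+ dCAMs at -4.80 ± 0.81 (adjusted p = 0.00129). In LPS mice 0 of the 40 passed by edgeR or by DESeq2, and 7 had an unadjusted p under 0.05 in edgeR. The LPS effect differed between the populations for 2 of the 40, against 1.26% of all genes, and these were Cd209a (4.17 ± 1.02, adjusted p = 0.0463) and Csf1r (-1.09 ± 0.24, adjusted p = 0.0234).

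Paralogs and partners of the members (22 found in the table, 17 tested) included several at the floor. Izumo1r, Fcnb, Timd2 and F13b, relatives or partners of Folr2, Fcna, Timd4 and F13a1, were at or under 3 counts in every library. Hp, the haptoglobin that CD163 binds, rose in both populations. After LPS its mean was 984 ± 152 CPM in tdT- libraries and 737 ± 246 CPM in tdT+ libraries (SD, n = 5 each), while 3 of 5 tdT- and 4 of 5 tdT+ libraries of CTL mice were at or under 3 counts (edgeR adjusted p = 3.42e-05 and 3.17e-05). Ly75, of the mannose receptor family, rose in tdT- dCAMs to 8.45 ± 4.60 CPM (SD, n = 5) from at or under 3 counts in 5 of 5 CTL libraries (edgeR adjusted p = 0.00894). Its mean in tdT+ LPS libraries was 0.202 CPM. Summed dendritic cell markers were likewise higher in tdT- LPS (230.3 to 634 CPM) than in tdT+ LPS libraries (4.62 to 18.2 CPM). Most of the tdT- LPS sum was Ccr7 (mean 401 CPM), with Flt3 at 8.44 and Zbtb46 at 7.99 CPM. Between populations in LPS mice 0 of the 3 tested markers passed by edgeR. A link to Ly75 was not tested. The hyaluronan receptor Cd44 rose by 3.03 ± 0.51 in tdT+ dCAMs (edgeR adjusted p = 0.000365). In tdT- dCAMs Cd44 did not pass at 1.36 ± 0.48 (edgeR adjusted p = 0.0661). Lyve1, also a hyaluronan receptor, fell in tdT- dCAMs and did not pass in tdT+ dCAMs at -2.38 ± 0.82 in the main fit, and both calls varied with the fit. The reductases Cbr3 and Cbr1 were lower in tdT- dCAMs at -2.76 ± 0.79 and -1.63 ± 0.50, in the same direction as Cbr2.

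The members did not move as 1 block from library to library. After the group means had been removed, the median r over the 45 pairs of members across the 20 libraries was 0.16, and 15 pairs had a negative r. The closest pair was Mrc1 and F13a1 (r = 0.70), followed by Stab1 and F13a1 (r = 0.62), Cbr2 and Pf4 (r = 0.60) and Cd163 and Mrc1 (r = 0.59). Timd4 was closest to Fcna (r = 0.47) and Lyve1 to Folr2 (r = 0.47). These r are descriptions, since the libraries share group, depth and mouse. Across the 20 libraries, the mean standardized level of the 8 members whose log2 CPM averaged 4 or more was most like Mmp9 (r = 0.89), Cd86 (0.86), Nrp1 (0.85), Ncoa4 (0.85) and Rhob (0.84) among 5815 other genes, and least like Ndufb1 (-0.90), Gngt2 (-0.87), Rnh1 (-0.86), Cd52 (-0.85) and Dusp2 (-0.85). That likeness includes the differences between the groups.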

How the data were processed

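Cranial dCAMs were sorted per mouse into tdT+ and tdT- cells and sequenced from about 500 pg of RNA by a PCR-based kit without molecular identifiers (13 and 16 PCR cycles), so that floors cover counting error only. The deposited counts per gene are raw values; the submitters' processing notes name bcl2fastq 2.20, STAR 2.7.11a, featureCounts 2.0.6 and DESeq2 1.46.0, and the strand setting was not given in the sources used here. The methods of the study name 2 builds, so coordinates and exon lengths come from GRCm38 with GENCODE M21 and only locate a gene.

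Labels gave the groups. Genes under 10 counts in sum were dropped, and TMM-scaled counts entered 1 joint fit in edgeR 4.0.16 (R 4.3.3), 1 mean per group, and 5 contrasts were tested with Benjamini-Hochberg adjustment over 16632 genes, on a script tested on simulated data. The common biological coefficient of variation was 1.13. The simulated counts had a lower spread and no pairing by mouse. Their test therefore bears on the script and not on error rates in these data. limma 3.58.1 and DESeq2 1.42.0 served as alternatives, beside other scalings, filters, fits on fewer libraries, the first letter of the sample title as a covariate and omission of each mouse. Omission of the tdT- CTL library of mouse 179 alone was added after the data had been seen. The tdT+ and tdT- libraries with 1 number come from the same mouse, which pairs them; the r of their deviations from the group means was -0.0046 to 0.0461 in CTL and 0.228 to 0.449 in LPS mice. Members and lists were chosen with earlier results of these data known. All 10 members are named, and from each list of related genes the 2 genes with the smallest p per direction and contrast, where past the threshold, and genes at the floor. The 5 genes most and least like the members' mean are named by Pearson r. P-values of the main fit refer to the spread between libraries within the groups, pooled over the 4 groups. That fit holds no term for the mouse that a tdT+ and a tdT- library share.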

Additional observations from a re-analysis of the deposited data

Results flagged for a closer look

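A library lay far from its group for 3 of the 40 member and group combinations examined with Dixon's ratio (critical value 0.71 for 5 samples), where chance gives about 1 in 20. The ratio was taken on log2 CPM (prior count 2), which spreads low values more than the CPM given here. Lyve1 in the tdT- LPS library of mouse 61 stood at 0.407 CPM (5 counts), below the other 4. Lyve1 in the tdT+ LPS library of mouse 54 stood at 100.8 CPM (1336 counts), above the other 4. Timd4 in the tdT- LPS library of mouse 60 stood at 0 CPM, while the other 4 held 19.9 to 34.5 CPM.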

How the results depend on the processing

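The number of members passing for LPS in tdT- dCAMs was 6 and became 2 when the libraries of the comparison were fitted alone and 3 with voom quality weights, and in CTL mice the 3 members higher in tdT+ dCAMs became 0 and 1 under the same settings. Over all genes, 881 and 1906 passed for LPS in tdT- dCAMs under these settings, and 7 and 369 between populations in CTL mice. The cause was not tested. Leaving out 1 mouse at a time gave 4 to 6 members for LPS in tdT- dCAMs, 3 to 4 for LPS in tdT+ dCAMs, 2 to 4 between populations in CTL mice, 0 in LPS mice and 0 to 1 for the difference of the LPS effects. With the mouse as a replicate block in limma-voom 6 and 4 members passed for LPS in tdT- and tdT+ dCAMs, 3 between populations in CTL mice, and 0 in LPS mice and for the difference. Of 1020 member values under alternatives, 946 kept their direction and side of the threshold, 30 passed in neither fit and changed sign, 12 came to pass and 32 no longer passed. Means of the summed members moved by less than 1 SD with total counts as the only scaling. The voom fit with the mouse as a block moved the median log2 fold change of all genes by 0.72 for LPS in tdT- dCAMs and 0.69 between populations in CTL mice, and the edgeR fit with that block moved the latter by 0.43. Timd4 was at 0 counts in 5 libraries, which limits its comparisons.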
